A study of Mus musculus with 10 samples.

Results

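The genes described here are 30 enzymes and regulators of cholesterol and fatty acid synthesis. They were taken by symbol from the deposited expression table, by pathway membership and with earlier results of these data known, as 15 genes of the sterol branch, 10 genes of the fatty acid branch and 5 regulators that govern both. The table lists 24421 genes, of which 12926 were above 0 in at least 1 library and were tested. All 30 members were among the tested genes, so none was lost to the filter on genes at 0.

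The study compared melanomas grown in wild-type (WT) mice with melanomas grown in mice that lack Siah2, a ubiquitin ligase, to ask what the loss of the ligase in the host does to the tumor. YUMMER1.7 cells, a mouse melanoma line that carries an activated Braf, were injected under the skin (100000 cells per mouse), and whole tumors were collected on day 10 for RNA sequencing. The cell number is that of the labels, and the study's methods give a larger one as the usual dose of this line. There were 5 tumors from WT hosts (WT replicates 2 to 6) and 5 from Siah2 KO hosts. Both groups received the same line, the knockout was carried by the whole animal and not by a chosen cell type, and the labels name no drug treatment in either group. The study's methods give a C57BL/6 background. The strain label of the first tumor reads C57Bl6 and its number goes up by 1 with each further sample, and the labels give neither the age of these mice nor the litter or cage of each tumor. The p-values below therefore set the group difference against the spread between these 10 tumors. The titles number the KO tumors 1, 2, 3, 5 and 6 while the table numbers its columns 1 to 5, so the last 2 are called column KO4 and column KO5 here. In whole tumors, fewer cells of a type and less RNA per cell cannot be told apart.

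Cholesterol is built from acetyl-CoA through mevalonate, isoprenoids and squalene, and the first sterol, lanosterol, is then trimmed to cholesterol by a further series of enzymes. Fatty acids are built from the same acetyl-CoA by carboxylation and repeated condensation, and are afterwards lengthened by elongases and given double bonds by desaturases. Both branches are driven by the SREBP transcription factors, which are made as membrane proteins, carried to the Golgi by Scap when sterols are scarce, and held back in the endoplasmic reticulum by the Insig proteins when sterols are plentiful. In skin and tumors these lipids supply membranes, and the more unsaturated fatty acids are also precursors of lipid mediators.

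SREBPs bind sterol response elements close to the start of their target genes, usually beside boxes for the factor NF-Y. The promoters of several members are shown because their genes shared these boxes and yet lay on both sides of the test's threshold. Whether these genes differed from one another in the tumors was not tested. Sequences are from RefSeq on GRCm38.p6, and a promoter window ran from 250 bases before to 50 bases after each annotated start. Windows were matched for 24 of the 30 members (12 sterol genes, 5 regulators, 7 fatty acid genes). A sterol response element with the letters TCACNCCAC, searched on both strands, was found in 1 member, Hmgcs1, in 1.36% of the 9867 tested genes with a window and in 1.24% of all 32851 promoters. It lies 137 bases before the start of Hmgcs1 on the plus strand, at chr13:119690194-119690242, where capitals mark the element.
Hmgcs1: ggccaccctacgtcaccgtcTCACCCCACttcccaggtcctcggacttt
The NF-Y box CCAAT, read on either strand, was found in 12 of 12 sterol genes, 4 of 5 regulators and 4 of 7 fatty acid genes, against 42.8% of the 9867 tested genes with a window and 37.4% of all promoters. The 80 bases before the start are given for 4 sterol genes that fell in the KO-labelled tumors and for 3 that did not pass the test, written along the strand of the gene with the box in capitals as CCAAT or, on the other strand, ATTGG.
Hmgcs1, fell, chr13:119690271-119690350, plus strand: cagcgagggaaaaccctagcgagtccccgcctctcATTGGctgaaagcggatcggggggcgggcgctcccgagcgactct
Mvd, fell, chr8:122443423-122443502, minus strand: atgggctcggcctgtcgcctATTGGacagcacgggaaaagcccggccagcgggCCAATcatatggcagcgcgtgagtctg
Lss, fell, chr10:76531525-76531604, plus strand: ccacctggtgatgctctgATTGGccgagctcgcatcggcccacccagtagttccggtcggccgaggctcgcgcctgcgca
Cyp51, fell, chr5:4104698-4104777, minus strand: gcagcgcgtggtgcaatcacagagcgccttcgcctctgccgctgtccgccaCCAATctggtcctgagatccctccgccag
Idi1, not past the test, chr13:8885526-8885605, plus strand: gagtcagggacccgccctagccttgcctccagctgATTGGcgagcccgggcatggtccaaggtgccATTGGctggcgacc
Msmo1, not past the test, chr8:64733579-64733658, minus strand: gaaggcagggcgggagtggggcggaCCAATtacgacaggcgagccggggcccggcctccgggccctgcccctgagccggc
Sc5d, not past the test, chr9:42264301-42264380, minus strand: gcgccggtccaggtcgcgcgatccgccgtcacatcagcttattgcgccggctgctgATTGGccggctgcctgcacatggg
Boxes of this kind occurred in 11 of the 14 members with a window that fell and in 9 of the 10 that did not pass. The E-box CACGTG was found in 3 of 12 sterol genes, 2 of 5 regulators and 1 of 7 fatty acid genes (11.5% of tested genes), and the Sp1 box GGGCGG in 11 of 12, 5 of 5 and 3 of 7 (67.8% of tested genes). A match of letters is a description of the window and not a site of binding. Only the letters given were searched, so a window without a match was not shown to lack the element.

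The values are normalized read counts rounded to whole numbers by the authors, called scores here, and differences are on the log2(score + 1) scale, KO-labelled minus WT, with the standard error of limma's fit. Scores of each library summed to between 15414758 and 15527530 in WT tumors and between 15605574 and 16503134 in KO-labelled tumors, and no 2 columns were identical. Siah2 itself (chr3:58674938-58692400, minus strand) scored 391, 428, 407, 393 and 408 in WT replicates 2 to 6 and 573, 739, 747, 490 and 610 in KO replicates 1 to 3 and columns KO4 and KO5. Its transcript was thus higher in each KO-labelled tumor than in each WT tumor, by 0.62 ± 0.11 (limma adjusted p = 0.00104), which goes against the labels if the deletion removes the transcript. The sources used here do not say which part of the gene is deleted, so a score over the whole gene does not check the label. Directions below rest on the labels. Over all 12926 genes, 18.2% were called lower and 17.5% higher at an adjusted p under 0.05, the median difference was -0.00056, and the KO-labelled tumors lay wholly below the WT tumors in 12.9% of genes and wholly above them in 11.9%. Of these calls 49% were higher, or 38.6% when libraries were brought to equal totals. Some sums of cell type markers differed between the groups and others overlapped. The summed score of 10 fibroblast markers ranged from 171985 to 196745 in WT and from 82141 to 114220 in KO-labelled tumors, that of 8 cytotoxic lymphocyte markers from 2580 to 4157 and from 9230 to 12461, and that of 8 macrophage markers from 31480 to 38208 and from 33050 to 55446. Of the fibroblast markers 9 were called lower and 1, Dcn, higher, and Col3a1 made up 38.6% of their sum in WT tumors. Of the macrophage markers 4 were called higher and 4 did not pass, and Lyz2 made up 52% of their sum in WT tumors. Of 9 adipocyte markers 4 were measured (719 to 1268 against 993 to 1747), and the defining genes Adipoq, Plin1, Lep, Retn and Cidec were listed at 0. Of 10 melanocyte and melanoma markers only 3 were above 0 (1345 to 1694 against 1046 to 1899), with Pmel, Mlana, Dct, Tyr, Tyrp1, Sox10 and Slc45a2 listed at 0. Of 8 Schwann cell markers 6 were measured, of which 3 were called lower and 1 higher. Their sum (2401 to 2706 against 1570 to 1843) was mostly a single gene, at 75.8% in WT tumors. The 2 measured sebaceous gland markers of 9 summed to 1596 to 1732 and 2193 to 2797, of which Soat1 made up 97.1% in WT tumors, and the 1 measured keratinocyte marker of 8 ran from 63 to 90 and from 47 to 103. These zeros were not taken to mean that a gene is silent. The part of cell composition in the results below was not tested.

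Most of the 30 members were lower in the KO-labelled tumors, and Fads2, Insig1, Fads1 and Scd2 had the largest differences among them. Of the 30 members, 18 were called lower, where 18.2% of all genes were. The count ran from 7 to 21 when single libraries were left out, with 7 without WT replicate 4, 8 without column KO4, 10 without WT replicate 6, 11 without KO replicate 3 and 12 without WT replicate 5, and 7 of the 18 calls held in every omission. Calls over all 12926 genes moved too. With all tumors 2347 genes were called lower, with 1853 without WT replicate 4, 2093 without column KO4 and 2653 without column KO5, which gave the 21. At an adjusted p under 0.05 limma called 0 members higher, and 0 were higher at an unadjusted p under 0.05. The difference was negative in 29 members. In 8 members the KO-labelled tumors lay wholly below the WT tumors, where 12.9% of all genes did. The median difference was -0.58 in the fatty acid branch, -0.36 in the regulators and -0.35 in the sterol branch, and whether the branches differ was not tested. The fatty acid branch had 7 of 10 genes lower and 4 without overlap, the regulators 4 of 5 lower and 3 without overlap, and the sterol branch 7 of 15 lower and 1 without overlap, the last no larger a share than over all genes.

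**Figure D1:**
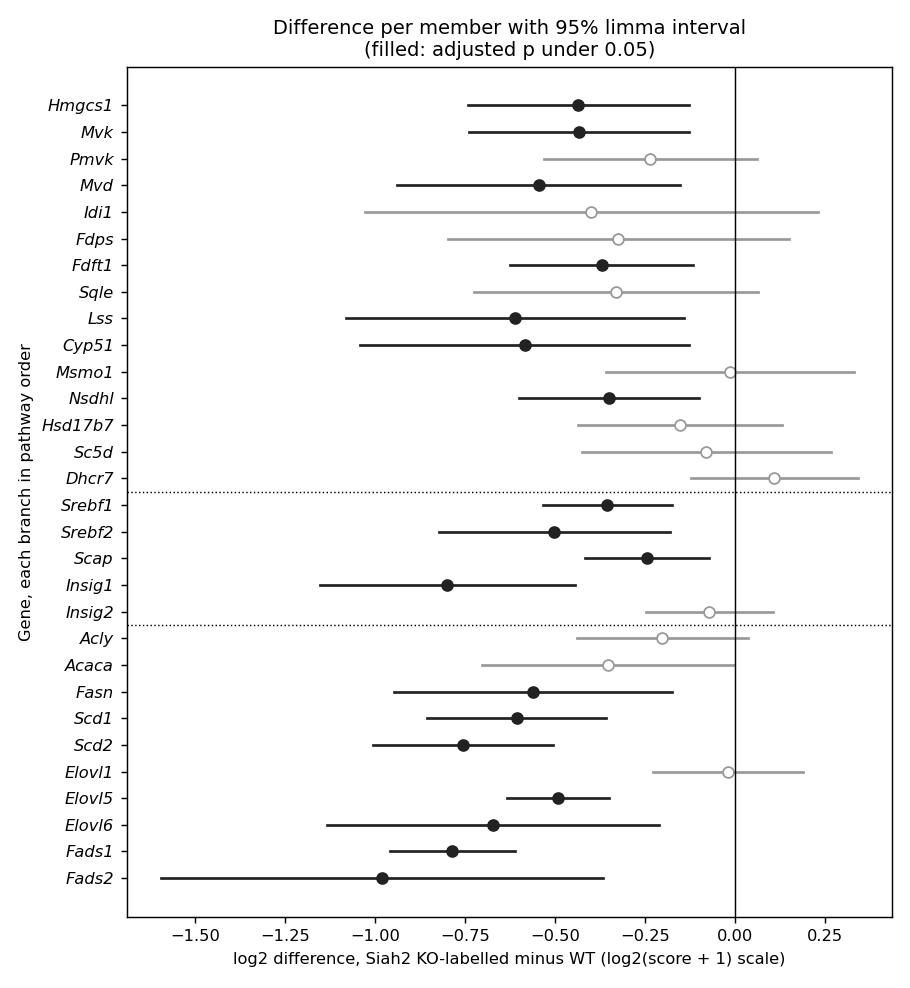
The log2 difference of each member (horizontal axis, KO-labelled minus WT, log2(score + 1) scale, 5 tumors per group) is drawn with its 95% limma interval, filled where the adjusted p was under 0.05. All points but Dhcr7 lie left of 0, and the lowest belong to Fads2 (-0.98), Insig1 (-0.80) and Fads1 (-0.79).

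In the first stage of sterol synthesis, which leads from acetyl-CoA units to isoprenoids, 3 of 6 genes were lower. Hmgcs1, which condenses acetyl-CoA units into HMG-CoA, scored 1388, 1373, 1615, 1334 and 1284 in WT and 780, 1246, 1034, 846 and 1370 in KO-labelled tumors. The first 4 KO-labelled tumors were below every WT tumor, while column KO5 was inside the WT range, and the difference was -0.44 ± 0.14 (limma adjusted p = 0.030). Mvk, mevalonate kinase, scored 295, 270, 338, 348 and 345 against 172, 283, 265, 208 and 267, a difference of -0.43 ± 0.14 (limma adjusted p = 0.0299). Only KO replicate 2 reached the WT range. Mvd, the decarboxylase that makes isopentenyl diphosphate, scored 242, 227, 289, 260 and 292 against 124, 211, 239, 132 and 218 and was lower as well (-0.55 ± 0.18, limma adjusted p = 0.033). KO replicate 1 and column KO4 were far below the other 3 KO-labelled tumors. Pmvk, the kinase between Mvk and Mvd, did not pass (-0.24 ± 0.14, limma adjusted p = 0.198), and its scores ran from 261 to 370 in WT and from 218 to 334 in KO-labelled tumors. Idi1, which isomerizes isopentenyl diphosphate, had low scores of 69, 70, 126, 83 and 76 against 67, 93, 49, 31 and 99, and did not pass (-0.40 ± 0.29, limma adjusted p = 0.303). Fdps, which makes farnesyl diphosphate, scored 1146, 925, 1394, 1131 and 1129 against 665, 1492, 903, 580 and 1178 and did not pass either (-0.32 ± 0.22, limma adjusted p = 0.266). KO replicate 2 held the highest Fdps score of all 10 tumors and column KO4 the lowest.

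Across the squalene and lanosterol steps 3 of 4 genes were lower. Fdft1, squalene synthase, was the sole sterol gene without overlap between the groups. It scored 491, 507, 647, 578 and 552 in WT tumors and 395, 473, 482, 333 and 472 in KO-labelled tumors, a difference of -0.37 ± 0.12 (limma adjusted p = 0.0261), and the gap between the nearest tumors of the groups was small beside their spread. Sqle, squalene epoxidase, did not pass (-0.33 ± 0.18, limma adjusted p = 0.174), with scores of 1455, 1336, 2003, 1541 and 1547 against 1133, 1651, 1184, 797 and 1666. Lss, lanosterol synthase, scored 653, 532, 824, 630 and 699 against 416, 572, 356, 262 and 680, and its difference of -0.61 ± 0.22 was the largest of the branch (limma adjusted p = 0.0434). KO replicates 1 and 3 and column KO4 were below every WT tumor, whereas KO replicate 2 and column KO5 were not. Cyp51, the demethylase that acts on lanosterol, followed the same division. Its scores were 1106, 1079, 1511, 1062 and 1076 against 565, 1162, 741, 513 and 1087, a difference of -0.58 ± 0.21 (limma adjusted p = 0.0461).

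Among the late enzymes that turn lanosterol derivatives into cholesterol, 1 of 5 was lower. Nsdhl, a sterol dehydrogenase that removes methyl groups, scored 249, 236, 311, 229 and 260 against 200, 184, 189, 186 and 248 (-0.35 ± 0.12, limma adjusted p = 0.0319), and column KO5 alone among the KO-labelled tumors reached the WT range. Msmo1, a methylsterol oxidase, scored 1011, 944, 1249, 1006 and 956 against 833, 1377, 1149, 711 and 1161, a difference of -0.02 ± 0.16 whose 95% interval ran from -0.36 to 0.33. Sc5d, a sterol desaturase, differed by -0.08 ± 0.16 (interval -0.43 to 0.27), and Hsd17b7, a ketosterol reductase, by -0.15 ± 0.13 (interval -0.44 to 0.13). Hsd17b7 spanned 619 to 661 in WT tumors and scored 549, 521, 578, 438 and 815 in KO-labelled tumors. KO replicates 1 to 3 and column KO4 thus lay below all WT tumors, and column KO5 above them. Without column KO5, Hsd17b7 was called lower (-0.28, limma adjusted p = 0.0241). Dhcr7, the reductase of the last step of one route to cholesterol, scored 508, 421, 503, 516 and 505 against 514, 565, 498, 436 and 648 and was the single member with a positive difference (0.11 ± 0.11, interval -0.12 to 0.34, limma adjusted p = 0.45). These 4 genes did not pass the test.

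The sterol calls lay close to the threshold and were sensitive to single tumors. WT replicate 4 was the highest WT tumor in 12 of 15 sterol genes. It was the highest of all 10 tumors in 8 of 15, against 7.88% of all tested genes. Column KO4 was the lowest of all 10 tumors in 9 of 15, against 17.7% of all tested genes. Without WT replicate 4, limma called 0 sterol genes lower at an adjusted p under 0.05 and 7 at an unadjusted p under 0.05, and the median difference was -0.25. Leaving out column KO4 also gave 0 and 7, with a median of -0.28. Of all 12926 tested genes, 1853 and 2093 were called lower in these 2 fits, against 2347 with all tumors. Without WT replicates 2, 3, 5 and 6 in turn, 3, 5, 2 and 1 genes were called lower. Without KO replicates 1, 2 and 3 and column KO5 in turn, 2, 6, 3 and 8 were. None of the 7 calls held in all 10 omissions, although the difference of each kept its sign.

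**Figure D2:**
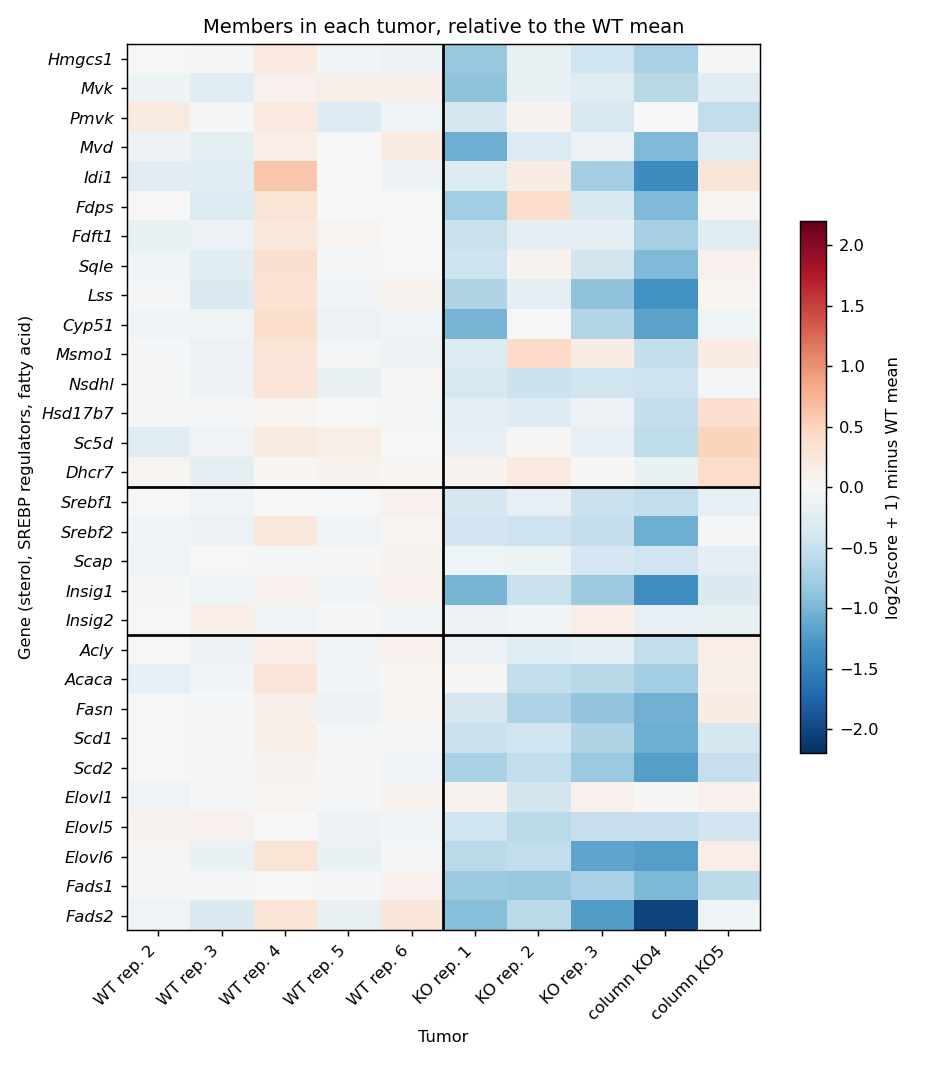
Each cell is the log2(score + 1) of a member (rows, in pathway order within the 3 groups) in a tumor (columns) minus its WT mean, blue below and red above it. Column KO4 is the darkest blue column, and column KO5 and, in sterol rows, KO replicate 2 are near white.

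Among the regulators, 4 of 5 were lower and Insig1 had the largest difference. Insig1, a retention protein for the SREBP escort and itself a classic SREBP target, scored 630, 598, 684, 614 and 689 in WT tumors and 315, 457, 370, 248 and 514 in KO-labelled tumors. The groups did not overlap, and the fold was 1.74 lower (-0.80 ± 0.16, limma adjusted p = 0.00237). Insig2, its paralog, scored 756, 837, 716, 774 and 709 against 696, 728, 836, 666 and 686 and did not pass (-0.07 ± 0.08, interval -0.25 to 0.10, limma adjusted p = 0.514). The ratio of Insig1 to Insig2 scores within a tumor averaged 0.854 ± 0.109 in WT and 0.529 ± 0.155 (SD, n = 5 each) in KO-labelled tumors, where 4 of 5 lay below the WT range (two-sided exact permutation p = 0.0159, 0.0317 after adjustment over 6 ratios). The ratios were chosen after the data were seen, which the adjustment does not cover. Per kilobase of exon the pair had a level ratio, Insig2 over Insig1, of 1.05 in WT and 1.69 in KO-labelled tumors. Srebf1, which encodes the SREBP most tied to fatty acid genes, scored 2012, 1885, 2039, 2006 and 2141 against 1546, 1769, 1439, 1385 and 1778, without overlap (-0.36 ± 0.08, limma adjusted p = 0.00526). Srebf2, which encodes the SREBP most tied to sterol genes, scored 3294, 3217, 4100, 3330 and 3658 against 2629, 2547, 2441, 1674 and 3384 (-0.50 ± 0.15, limma adjusted p = 0.0188). Column KO5 was its sole KO-labelled tumor in the WT range. Scap, the escort protein, showed a smaller difference without overlap, from 1358, 1436, 1407, 1463 and 1505 to 1339, 1328, 1105, 1060 and 1236 (-0.25 ± 0.08, limma adjusted p = 0.029). The ratio of Srebf1 to Srebf2 averaged 0.576 ± 0.0455 in WT and 0.645 ± 0.119 in KO-labelled tumors (exact permutation p = 0.286, 0.4285 after adjustment). Srebf1 and Insig1 stayed past the threshold in all 10 single omissions. Srebf2 lost its call without WT replicate 4 (limma adjusted p = 0.0513), and Scap lost it without any of WT replicates 3 to 6, KO replicate 3 or column KO4 (limma adjusted p from 0.0544 to 0.0701). Column KO4 had the lowest score of all tumors in 5 of 5 regulators, against 17.7% of all tested genes.

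At the entry to fatty acid synthesis 1 of 3 genes was lower. Acly, which splits citrate into cytosolic acetyl-CoA for both branches, scored 3150, 2890, 3497, 2988 and 3367 against 2892, 2631, 2750, 2169 and 3499 and did not pass (-0.20 ± 0.11, limma adjusted p = 0.171). Acaca, the carboxylase that makes malonyl-CoA, did not pass either (-0.35 ± 0.16, limma adjusted p = 0.107). KO replicates 2 and 3 and column KO4 had Acaca scores of 419, 399 and 362, below all WT tumors (537 to 732), while KO replicate 1 and column KO5 were at 619 and 654. Fasn, fatty acid synthase, scored 3435, 3405, 3755, 3197 and 3596 against 2681, 2162, 1907, 1676 and 3883. It was called lower (-0.56 ± 0.18, limma adjusted p = 0.0267) even though column KO5 held the highest Fasn score of all 10 tumors.

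The stearoyl-CoA desaturases, which put the first double bond into saturated fatty acids, were lower in every KO-labelled tumor. Scd1 scored 3180, 3103, 3465, 3095 and 3101 in WT tumors and 2256, 2345, 2023, 1514 and 2471 in KO-labelled tumors, a fold of 1.52 (-0.61 ± 0.12, limma adjusted p = 0.00146). Scd2 scored 11683, 11349, 12275, 11875 and 11247 against 7095, 8022, 6662, 5065 and 8241, a fold of 1.69 (-0.76 ± 0.12, limma adjusted p = 0.000354). Neither gene had overlapping groups, and column KO4 was lowest in both. Scd2 was also the most abundant member per kilobase of exon, at 3.28 times the level of Scd1 in WT and 2.96 times in KO-labelled tumors. The ratio of Scd1 to Scd2 scores averaged 0.273 ± 0.00786 in WT and 0.303 ± 0.00954 in KO-labelled tumors without overlap (exact permutation p = 0.00794, the smallest this design allows, 0.0238 after adjustment over 6 ratios), so Scd2 had the larger difference of the pair. This ratio too was chosen after the data were seen. The 2 genes lie 87.6 kb apart on chromosome 19 and are similar in sequence, and the sources used here do not say how reads that match both were counted.

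Of the 3 elongases 2 were lower. Elovl5, which lengthens polyunsaturated fatty acids, scored 2465, 2489, 2353, 2174 and 2247 against 1724, 1557, 1654, 1650 and 1749 (-0.49 ± 0.07, limma adjusted p = 0.000132). It was the most even member, as its highest KO-labelled tumor was 1.12 times its lowest and all 5 lay below the WT tumors. Elovl6, which lengthens the palmitate made by Fasn, scored 874, 783, 1060, 780 and 842 against 573, 595, 384, 372 and 949 (-0.67 ± 0.21, limma adjusted p = 0.0264). Column KO5 lay inside the WT range of Elovl6 and the other 4 tumors below it. Elovl1, which lengthens long saturated chains, scored 1087, 1121, 1183, 1118 and 1196 against 1205, 863, 1224, 1156 and 1218 and did not pass (-0.02 ± 0.10, interval -0.23 to 0.19).

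The front-end desaturases of polyunsaturated fatty acids had the largest differences of the branch. Fads1 scored 1733, 1751, 1808, 1766 and 1908 in WT tumors and 1012, 1008, 1093, 901 and 1207 in KO-labelled tumors. The groups were far apart and the spread within each was small, with a fold of 1.72 (-0.79 ± 0.08, limma adjusted p = 1.88e-05, the smallest of the 30 members). Fads2, its neighbour 81.1 kb away on chromosome 19, scored 385, 325, 504, 363 and 487 against 211, 271, 173, 98 and 379, a fold of 1.97 (-0.98 ± 0.28, limma adjusted p = 0.017). Column KO5 lay inside the WT range for Fads2, and column KO4 at 0.237 of the WT mean was the lowest relative value of any member. The ratio of Fads1 to Fads2 averaged 4.45 ± 0.721 in WT and 5.44 ± 2.42 in KO-labelled tumors, a difference within the spread (exact permutation p = 0.540). Calls of Scd1, Scd2, Elovl5, Fads1 and Fads2 held in all 10 single omissions, in which Fads1 ran from -0.84 to -0.73. Fasn lost its call without WT replicate 4 or 6, KO replicate 2 or 3, or column KO4 (limma adjusted p from 0.0553 to 0.0686), and Elovl6 without WT replicate 2 or 4, KO replicate 3 or column KO4 (0.0519 to 0.0682). Acaca gained a call as lower without KO replicate 1 (limma adjusted p = 0.0406) or column KO5 (0.0232), and Acly without column KO5 (0.0279).

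**Figure D3:**
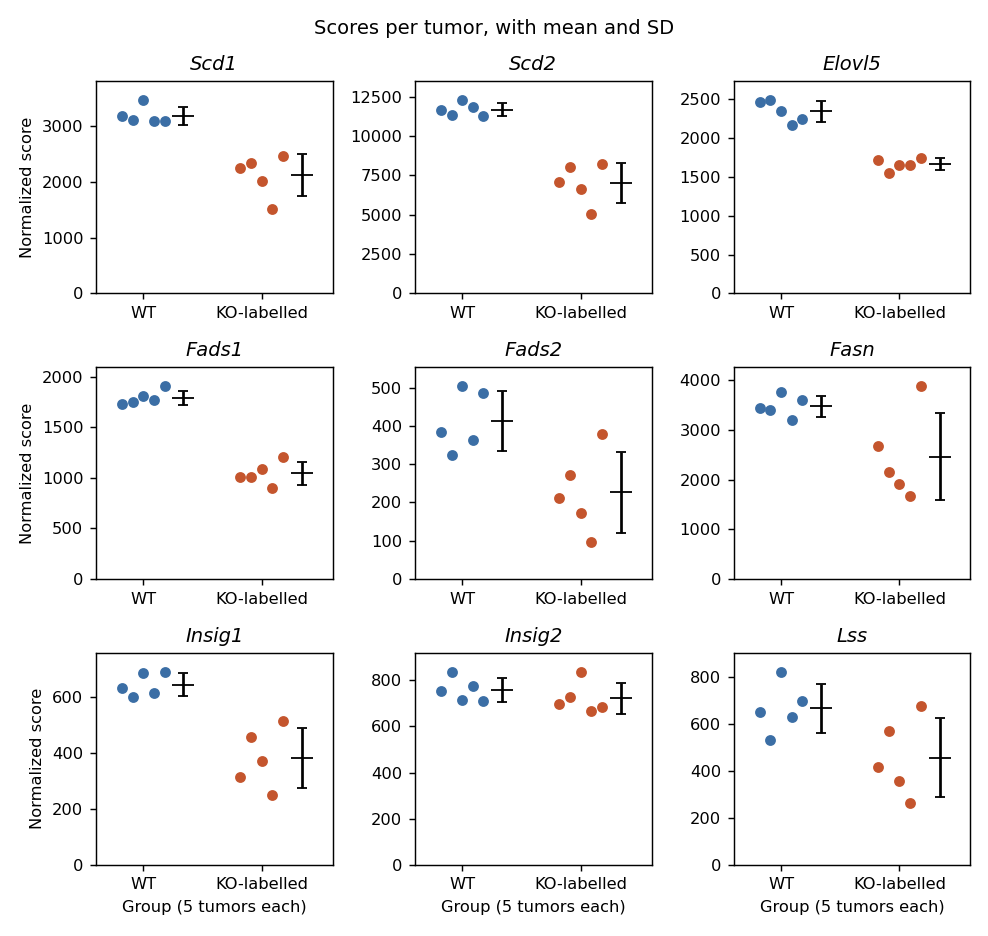
Normalized scores (vertical axes, starting at 0) of 9 members are drawn per tumor for WT and KO-labelled groups of 5, with the mean and SD beside them. Scd1, Scd2, Elovl5, Fads1 and Insig1 show no overlap, while Fads2, Fasn and Lss have KO-labelled points above the lowest WT point.

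The 2 branches stood at different levels in KO replicate 2. The median sterol gene stood at 1.01 times its WT mean in that tumor, yet its 10 fatty acid genes all lay below the WT range, with a median of 0.688. Over all tested genes, 37.3% lay below the WT range in KO replicate 2. In KO replicates 1 and 3 both branches were low, at 0.726 and 0.796 for the sterol and 0.722 and 0.623 for the fatty acid median. Column KO4 was the lowest tumor of both, at 0.607 and 0.493, and column KO5 stood near the WT mean in both, at 1.03 and 0.998. In column KO5, 8 of 15 sterol genes and 3 of 10 fatty acid genes lay inside the WT range. Above the range in that tumor lay 3 sterol and 3 fatty acid genes, and 4134 of all 12926 tested genes. Scd1, Scd2, Elovl5 and Fads1 were the 4 fatty acid genes that lay below the WT range there too, as did 32.2% of all tested genes. The WT medians ran from 0.918 to 1.17 for the sterol and from 0.948 to 1.08 for the fatty acid branch, with WT replicate 4 highest in each. These are descriptions of single tumors, and the divergence of the branches was not tested. Column KO4 also had the highest macrophage marker sum (55446), while its fibroblast sum (91644) lay within the range of the other KO-labelled tumors.

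**Figure D4:**
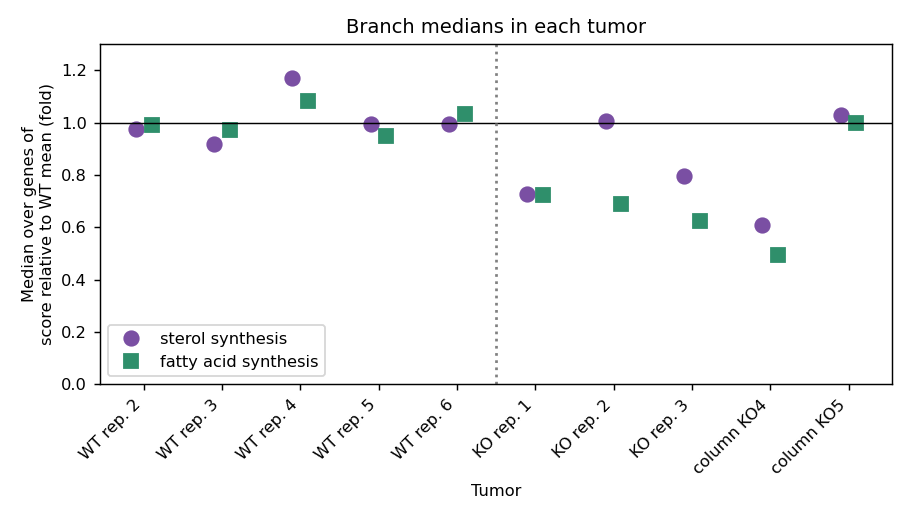
For each tumor (horizontal axis) the median over the 15 sterol genes (circles) and the 10 fatty acid genes (squares) of the score relative to the WT mean is drawn on a linear axis from 0. KO replicate 2 has its circle at 1.01 and its square at 0.688, and column KO4 has the lowest of both.

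KO-labelled tumors also varied more among themselves. Median SDs on the log2 scale for WT and KO-labelled tumors were 0.173 and 0.381 over the sterol genes, 0.0857 and 0.281 for the fatty acid genes, and 0.115 and 0.225 for all tested genes. The KO-labelled SD was the larger in 15 of 15 sterol and 9 of 10 fatty acid genes, and in 10716 of 12926 genes overall. Elovl5 was the exception. The limma fit behind the calls takes a single variance per gene for both groups.

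Other genes of the same pathways, from lists drawn up by pathway, were mixed, and their counts are to be read against the 18.2% of all genes called lower and 17.5% called higher. Of 12 further sterol synthesis genes tested, 3 were lower, 0 higher (2 at an unadjusted p under 0.05 in limma) and 9 did not pass. Of the 3 lower genes, Acat2, which supplies acetoacetyl-CoA (-0.59), and Cyb5r3, an electron donor (-0.42), were picked out after their values were seen. Of 11 genes of SREBP processing and breakdown, 1 was lower, 1 higher and 9 did not pass. Both are named after their values were seen. The lower gene was Mbtps1, the protease that makes the first cut in SREBPs, which fell from 3817 ± 179 to 2392 ± 473 without overlap (-0.70 ± 0.12, limma adjusted p = 0.000792), and the higher gene was Tmem33 (0.21).

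Of 15 further SREBP targets and uptake genes, 5 were lower, 2 higher and 8 did not pass. Picked out by their values, Lpin1 (-0.91), Mylip (-0.62), Stard4 (-0.61) and Lrp1 (-0.58) were lower, and Npc2 (0.63) and Soat1 (0.63), which handle cholesterol in lysosomes and store it as esters, were higher. Of 30 further fatty acid genes, 5 were lower, 5 higher and 20 did not pass, shares close to those over all genes. Picked out by their values, the other lower genes beside Elovl4 were Gpam (-0.71), Acsl3 (-0.66), Hacd2 (-0.63) and Tecr (-0.33), and the higher genes were Fads3 (0.56), Acsl1 (0.40), Acsl5 (0.29), Mlx (0.23) and Hsd17b12 (0.19). Elovl4, an elongase of very long chains, had low scores of 34, 25, 17, 49 and 30 against 15, 8, 13, 18 and 17 (-1.04 ± 0.30, limma adjusted p = 0.0163). Acss2, which makes acetyl-CoA from acetate and stands in both lists, did not pass (-0.12 ± 0.13, limma adjusted p = 0.502).

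Of 11 oxysterol and LXR genes, 4 were higher, 2 lower and 5 did not pass. LXRs are nuclear receptors for oxysterols, which also hold SREBPs in the endoplasmic reticulum through Insig proteins. Nr1h3, which encodes LXR alpha, scored 175, 110, 129, 167 and 170 in WT tumors and 496, 213, 419, 565 and 542 in KO-labelled tumors, a fold of 2.85 without overlap (1.51 ± 0.24, limma adjusted p = 0.000447). Ch25h, which makes an oxysterol from cholesterol, scored 159, 199, 315, 258 and 260 against 332, 394, 698, 428 and 495, a fold of 1.96 without overlap (0.97 ± 0.21, limma adjusted p = 0.00319). Cyp46a1, a cholesterol hydroxylase known from brain, scored 23, 31, 19, 29 and 24 against 4, 9, 7, 7 and 3 (-1.96 ± 0.30, limma adjusted p = 0.000335). Abcg1, a cholesterol exporter picked out by its value, was higher (0.79), as was Hsd3b7 (0.48), while Abca1, another exporter, did not pass (-0.04). Mylip, an LXR target that also stands in the list of SREBP targets, was the other lower gene (-0.62). Whether these genes and the members moved in the same cells was not tested.

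**Figure D5:**
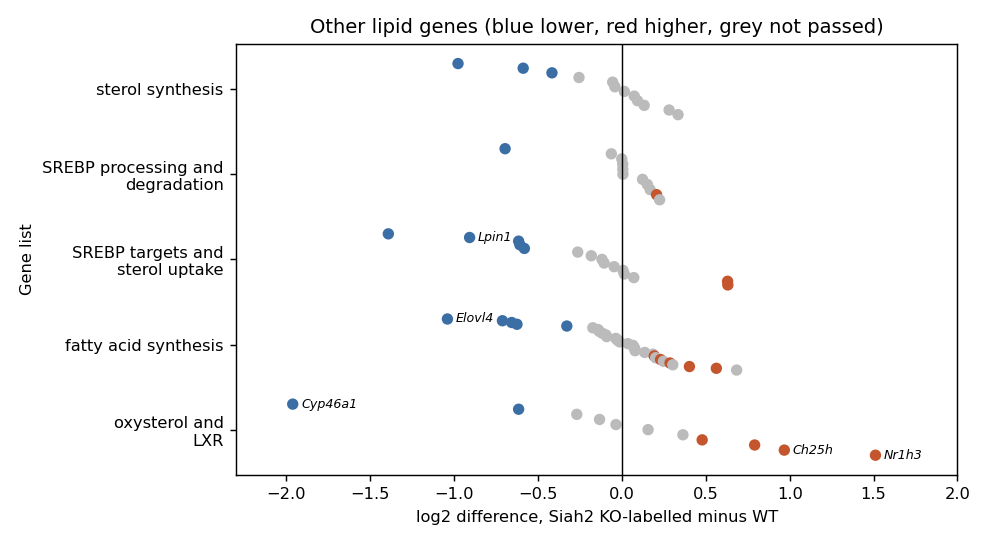
Each point is a gene of 5 further lipid lists (rows) at its log2 difference, KO-labelled minus WT, blue where called lower, red where called higher and grey where it did not pass. Nr1h3 (1.51) and Cyp46a1 (-1.96) are the outermost points in the oxysterol and LXR row.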

How the data were processed

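Whole YUMMER1.7 tumors from 5 WT and 5 Siah2 KO-labelled hosts were profiled by poly(A) RNA sequencing with a directional library kit. By the methods of the study and the processing notes of the submitters, FastQC checked the reads, STAR aligned them to mm10, featureCounts assigned them to genes, and edgeR run through SARTools normalized the counts. The sources used here name no tool version, annotation or strand option. The deposited values are scores, that is normalized counts that the authors rounded to whole numbers, so the raw depth of each library is unknown here and counting error has no interval. The total score per library was 15414758 to 16503134. The authors' own columns of fold changes and p-values were not used.

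Groups were taken from the sample titles. Genes at 0 in all 10 libraries (11495) were left out, and log2(score + 1) of the other 12926 was analysed with limma (version 3.58.1, under R 4.3.3), taking genotype as the sole term, empirical Bayes moderation with a trend, and Benjamini-Hochberg adjustment over all tested genes (threshold 0.05). This log-scale test took the place of the study's count test, because the scores are not raw counts. It understates the fold of low genes. Intervals are 95% limma intervals. Ratios of 2 genes, 6 in all and chosen after the data were seen, were compared by a two-sided exact permutation test over the 10 tumors. The scripts were tested on simulated data.

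The members, the other gene lists, the marker lists and the tests were chosen with earlier results of these data known. Besides Siah2 and the members, the rule for named genes took those genes of 5 further lipid lists that passed the threshold with a log2 difference of at least 1 in either direction, plus Ch25h, Acss2 and others. Some genes that the rule takes, and some of the 6 ratios, are not reported here. Alternatives were pseudocounts of 0.5 and 10, a mean score of at least 50, total-count and median-ratio scaling, array weights, moderation without a trend, omission of each library, omission of columns KO4 and KO5, and a replicate block. Leaving out WT replicate 4 together with column KO4 was added after the data were seen. Gene positions and exon lengths are from GENCODE M21, and promoter sequences from RefSeq on GRCm38.p6.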

Additional observations from a re-analysis of the deposited data

Results flagged for a closer look

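In 7 of 78 groups of 5 tumors, 1 tumor stood apart from the other 4 by Dixon's criterion, with a gap of more than 0.71 of the group's range, and chance alone gives about 1 in 20. In 4 of them the tumor was WT replicate 4 or WT replicate 3 in a sterol gene. WT replicate 4 scored 126 for Idi1, where the other WT tumors scored 69 to 83. It scored 1511 for Cyp51 against 1062 to 1106 and 1249 for Msmo1 against 944 to 1011. WT replicate 3 scored 421 for Dhcr7 against 503 to 516. Among fatty acid genes, WT replicate 4 scored 3465 for Scd1 against 3095 to 3180, and KO replicate 2 scored 863 for Elovl1 against 1156 to 1224. Column KO5 scored 248 for Nsdhl, where the other KO-labelled tumors scored 184 to 200.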

How the results depend on the processing

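For the 39 named genes, direction and side of the threshold stayed the same under both pseudocounts, both scalings and array weights, and for the 36 genes kept by a mean score of at least 50. Without a trend Lss and Cyp51 lost their calls (limma adjusted p = 0.0637 and 0.0688). The number of genes called ranged from 3335 to 5182 around 4606. Total-count scaling moved the median of all genes to -0.0582. Over single omissions, the count of sterol genes called lower ranged from 0 to 8 around 7, that of regulators from 2 to 4 around 4, and that of fatty acid genes from 5 to 9 around 7. That of all 12926 tested genes ranged from 1853 to 2653 around 2347. Without columns KO4 and KO5 there were 4 sterol calls, where 2263 of all tested genes were called lower. With WT replicate 4 and column KO4 both left out, 0 sterol genes, 2 regulators and 4 fatty acid genes were called lower, and 2 sterol genes had an unadjusted p under 0.05. In that fit 1700 of all tested genes were called lower. The direction of Msmo1, Sc5d and Elovl1, none of which passed the test, turned in some omissions, with ranges of -0.12 to 0.11, -0.22 to 0.0392 and -0.0518 to 0.0742. Msmo1 was at 0.0933 without columns KO4 and KO5 and at 0.18 without WT replicate 4 and column KO4, where Sc5d was at 0.0902.

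WT and KO titles share the replicate numbers 2, 3, 5 and 6. Columns KO4 and KO5 could not be matched to the KO titles 5 and 6, so the fit with a replicate block used the numbers 2 and 3 only, with 4 tumors, and the other pairs were not checked. The deviations of same-numbered tumors correlated at 0.0349 and 0.0501 over genes. Those of differently numbered tumors were not worked out for comparison, so these values do not settle whether the numbers pair the tumors. The main fit did not take the numbers as pairs. With the replicate block, 10 of the 30 members were called lower, namely 0 sterol genes, 2 regulators and 8 fatty acid genes, where 1984 of all 12926 genes were. In that fit 1 sterol gene, Msmo1 (0.36, limma adjusted p = 0.0379), was called higher, and the median fatty acid difference was -0.64. The median sterol difference was -0.0614, and Fdps (0.17), Sqle (0.0040) and Sc5d (0.0930) turned positive. The block fit uses fewer tumors, which include KO replicate 2. The depth behind the scores is unknown, so how much counting error adds to genes with low scores, such as Idi1, Elovl4 and Cyp46a1, was not worked out.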
